A study of Mus musculus with 175 samples.

Results

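The mouse genome encodes a large set of heat shock proteins and chaperonins, and 83 protein-coding genes of this kind were examined in single megakaryocyte-erythroid progenitors (MEPs) and common myeloid progenitors (CMPs) of the fetal liver. They were taken by name from the deposited gene annotation as the genes whose symbol starts with Hsp, Dnaj or Cct and continues as a family member does, and make up 83 of 49585 mouse features. Of 98 matching names, 15 were of another gene type and were left out, among them Cct6a, a true chaperonin subunit that the annotation types as a processed transcript. The 83 genes hold 82 distinct symbols, since Hspa14 stands for 2 gene identifiers. The rule used no measured value.

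The cells came from E14.5 fetal livers of mice on a C57BL/6 by ICR background carrying the Runx1 P1-GFP::P2-hCD4/+ reporter, in which human CD4 at the cell surface reports activity of the Runx1 P2 promoter. All 4 populations carried this reporter and none received a treatment. They were CD41- CD150+ cells, sorted as MEPs (Lin- Sca1- cKit+ CD16/32 low CD34-) or CMPs (the same but CD34+), each without and with surface hCD4, and are called P2- and P2+ here. The genotype label writes P2-GFP where the protocol writes P1-GFP, and the CMP labels read low and high, which were taken as P2- and P2+. Livers of 2 litters were pooled, so each population is 1 sample, no comparison has a replicate and no test was made. Among the P2- CMPs 1 cell carries a subtype label that names MEPs and was kept as a CMP, and without it the number of members called in each comparison was the same. After the cell filters there remained 56, 47, 27 and 42 cells in the order P2- MEP, P2+ MEP, P2- CMP, then P2+ CMP, with 295064 to 1540631 reads on mouse genes per cell. The level of a gene is its reads summed over the cells of a population per 1000000 summed mouse reads (pooled CPM), and runs of 4 values follow this same order. Each 95% interval covers counting error only, not the difference between animals or sorts. A gene was compared where it was read in 25% or more of the cells in whichever population had the higher share and at least 100 reads over both populations, and was called when its pooled CPM differed at least 2-fold. A pooled level cannot tell fewer cells with the RNA from less RNA per cell, so values per cell are given beside it.

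Molecular chaperones bind unfolded or partly folded proteins and release them in cycles driven by ATP. HSP70 proteins work with J-proteins (the Dnaj genes), which deliver the substrate and start ATP hydrolysis, and with nucleotide exchange factors such as the HSP110 proteins, which reset the cycle. HSP90 proteins mature signalling proteins and steroid receptors, the TRiC ring built of Cct subunits and Tcp1 folds actin and tubulin in the cytosol, and the HSP60 ring with its lid HSP10 folds imported proteins in mitochondria. Separate sets serve the endoplasmic reticulum, with the HSP70 protein BiP (Hspa5) and the HSP90 protein GRP94 (Hsp90b1). In erythroid cells HSP70 is known for shielding the transcription factor GATA1 from caspase cleavage.

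Many chaperone genes are known to respond to unfolded protein through either of a pair of promoter elements, bound by heat shock factors or by factors of the endoplasmic reticulum stress response. Promoter stretches with these elements are shown so that they can be set beside the values of the genes that hold them, given further on. The heat shock element was searched on both strands as 3 units of GAA or TTC in turn, with 2 bases between units. The endoplasmic reticulum stress element was searched as CCAAT, 9 bases and CCACG, on either strand. The windows came from RefSeq (GRCm38.p6) and covered 250 bases before to 50 after a start, with 86 windows for 67 of the 82 symbols. The 15 symbols without a window were Cct4, Dnajc2, Dnajc5, Dnajc5b, Dnajc11, Dnajc12, Dnajc18, Dnajc22, Dnajc30, Hsp90aa1, Hsp90ab1, Hspa8, Hspa9, Hspa13 and Hspb2. The heat shock element stood in 0.603% of all 32851 windows and in 6 of the 86 (6.98%), those of Hspd1, Hspe1, Hsph1 and Dnajb6. The shorter core GAANNTTC, with N for any base, stood in 7.86% of all windows and in 18 of the 86 (20.9%), those of 16 genes. The core TTCNNGAA stood in 8.52% of all windows and in 9 of the 86 (10.5%), those of 7 genes. The stress element stood in 0.119% of all windows and in 3 of the 86 (3.49%), those of Hspa5, Hsp90b1 and Dnajc3. The lines give 30 bases, 5′ to 3′ on the strand of the gene, with the units of the element in capitals. A match is a description of these letters and not a measured binding site.
Hspe1, heat shock element, chr1:55088053-55088082, plus strand: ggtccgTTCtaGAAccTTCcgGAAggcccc
Hsph1, heat shock element, chr5:149636279-149636308, minus strand: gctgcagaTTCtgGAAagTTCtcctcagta
Dnajb6, heat shock element, chr5:29735844-29735873, plus strand: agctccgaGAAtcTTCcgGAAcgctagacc
Hspa5, stress element, chr2:34772020-34772049, plus strand: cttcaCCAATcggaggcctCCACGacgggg
Hsp90b1, first stress element, chr10:86705632-86705661, minus strand: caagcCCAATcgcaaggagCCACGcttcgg
Hsp90b1, second stress element, chr10:86705527-86705556, minus strand: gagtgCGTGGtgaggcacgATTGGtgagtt
Dnajc3, stress element, chr14:118937822-118937851, plus strand: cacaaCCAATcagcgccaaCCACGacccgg
The Hspe1 element runs from base -89 to -72 before the Hspe1 start. Hspe1 and Hspd1 are neighbours that face away from each other, and the windows of both genes hold this same element. The Hsph1 element lies from base 16 to 28 after the transcription start used for the window shown, and a second Hsph1 window, from another start, holds the same element. Both Dnajb6 windows hold the same element as well, so the 6 windows hold 3 distinct elements.

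The 83 genes together took 2.57%, 2.26%, 2.04% and 1.88% of the mouse reads of the 4 populations. Over cells, the share of P2- MEPs was between 1.99% and 3.07% (median 2.59%). For P2+ MEPs it was between 1.59% and 2.88% (median 2.33%). For CMPs it was between 1.17% and 2.69% (median 2.11%) without hCD4 and between 1.32% and 2.72% (median 1.87%) with it. The medians had the same order as the pooled shares, and the ranges of all 4 populations overlapped. The ribosomal RNA gene Rn18s-rs5 took 5.58%, 7.18%, 8.84% and 10.6% of the reads in the same order of populations. With mitochondrial genes and Rn18s-rs5 taken out of the total, the shares of the 83 genes were 2.84%, 2.56%, 2.34% and 2.19%, so the order was the same.

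**Figure D1:**
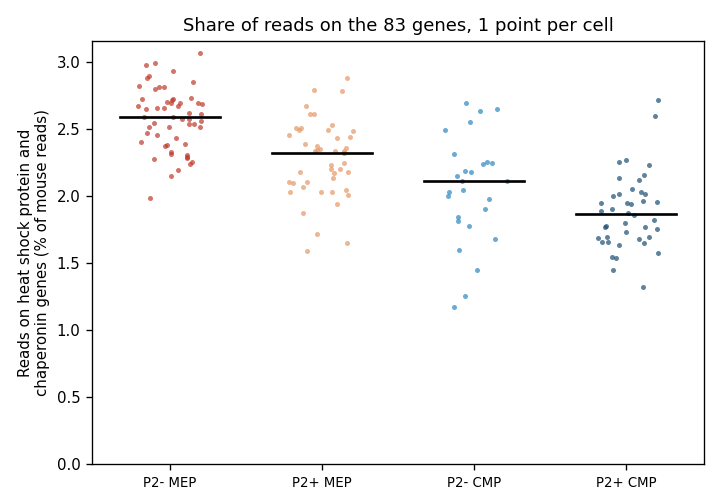
Reads on the 83 genes as a percent of the mouse reads of each cell (vertical axis), 1 point per cell, in the 4 populations. The black lines are medians over cells, which step down from 2.59% in P2- MEPs to 1.87% in P2+ CMPs, while the ranges overlap.

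The reads were concentrated in few genes. HSP90 genes held 35.9% of all reads on the set, TRiC subunits 21.2%, HSP70 and HSP110 genes 20.8%, J-proteins of class C 9.18% and the HSP60/HSP10 pair 7.49%. The 5 genes with most reads (Hsp90ab1, Hsp90aa1, Hspa8, Cct8 and Cct5) held 54.1%. In all, 55 of the 83 genes passed the filter in at least 1 comparison, 28 did not, and 10 of those had no read in any kept cell. Per kilobase of exon over all cells, the order of levels was Hsp90ab1 (1579 CPM per kb), Hsp90aa1 (698), Hspa8 (592), Hspe1 (549), Cct5 (316.9), Hspd1 (314.45), Cct8, Cct2 (245.5), Hspa5 (168) and Cct4 (155). This order pools the 4 populations, and neighbours in it changed places within a population. In P2- MEPs alone Hspe1 (804 CPM per kb) was above Hspa8 (740), and both Hspd1 (427) and Cct8 (344.6) were above Cct5 (335.8).

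**Figure D2:**
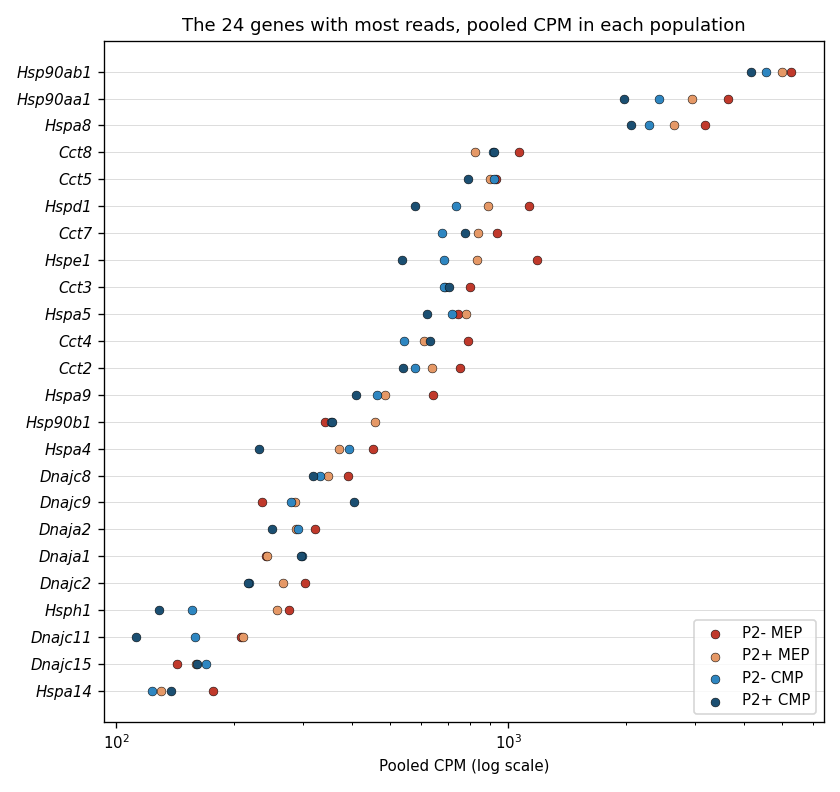
Pooled CPM (log axis) of the 24 genes with most reads, 1 point for each of the 4 populations. The cytosolic HSP90 genes, Hspa8 and the HSP60/HSP10 pair are highest in P2- MEPs and lowest in P2+ CMPs, while Hsp90b1 is highest in P2+ MEPs and Dnajc9 in P2+ CMPs.

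Across the whole set, the shift between P2+ and P2- cells was small in both MEPs and CMPs. In MEPs 53 of the 83 genes could be compared, of which 0 were called higher in P2+ MEPs and 1 (Dnajc18) lower, where 7.1% of all 8940 genes compared were called higher and 3.66% lower. Of the 53, 34 (64.2%) had a ratio below 0 against 49.9% of all genes, and their median log2 ratio was -0.16 against 0.00 for all genes. In CMPs 54 could be compared, of which 2 were called higher in P2+ CMPs (Hspb11 and Dnajc16) and 0 lower, where 4.98% of all 9316 genes were called higher and 5.1% lower. Their median was -0.02, as it was for all genes. The counts called were at or under the share of all genes in each direction, so calls past 2-fold did not single out the set, and the values that follow are mostly ratios of less than 2-fold.

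Between MEPs and CMPs, more members had higher levels in the MEPs among P2- cells, while among P2+ cells the share was near that of all genes. In P2- cells 54 members could be compared, of which 0 were called higher in CMPs and 3 lower (Hspa4l, Hspbap1 and Dnajc25), where 15.1% of all 9260 genes were called higher and 7.33% lower. Of the 54, 39 (72.2%) had a ratio below 0 against 48.7% of all genes, with a median of -0.22 against 0.03. In P2+ cells 54 could be compared, of which 1 was called higher in CMPs (Dnajc18) and 3 lower (Dnajb14, Dnajc21 and Hsph1), where 11.9% of all 9399 genes were called higher and 7.21% lower. Of these, 31 (57.4%) had a ratio below 0 against 51.4% of all genes, with a median of -0.11 against -0.02. The 4 comparisons share populations and are not independent of each other.

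Over all cells, the cytosolic HSP90 genes gave the highest levels of the set, while Hsp90b1, given further on, was far lower. Hsp90ab1, the constitutive cytosolic form, stood at 5266, 4993, 4533 and 4166 CPM. Hsp90aa1, the stress-inducible cytosolic form, stood at 3641, 2940, 2427 and 1979 CPM. Its medians over cells were 3812, 2990, 2686 and 1946 CPM, and the cells ranged from 2087 to 5027 CPM among P2- MEPs and from 813 to 3600 CPM among P2+ CMPs. Only 6 of 47, 1 of 27 and 0 of 42 cells of the other populations were above the median of the P2- MEPs, though the ranges overlapped. The log2 ratio of P2+ to P2- cells was -0.31 (counting interval -0.32 to -0.30) in MEPs and -0.29 (-0.31 to -0.28) in CMPs for Hsp90aa1. For Hsp90ab1 it was -0.08 in MEPs and -0.12 in CMPs, a smaller difference in the same direction. Reads of Hsp90aa1 carry an uncertainty, since 43.6% of its 70-base stretches also occur in another annotated transcript, mainly the Gm12346 copy, against 0.991% for Hsp90ab1.

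Among the HSP70 genes, Hspa8, the constitutive cytosolic HSP70, was by far the most abundant. It stood at 3185, 2647, 2292 and 2051 CPM, with medians over cells of 3232, 2586, 2196 and 1958 CPM. The cells of the 4 populations spanned 1735 to 5116, 1387 to 5751, 832 to 5359 and 689 to 3989 CPM. The populations therefore overlapped widely, but 8 of 47, 5 of 27 and 1 of 42 cells of the other populations were above the P2- MEP median. For Hspa8 34.3% of 70-base stretches recur in other transcripts, mainly Gm15459.

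The heat-inducible HSP70 genes were nearly silent. Hspa1a had 5 reads in all, in a single P2+ MEP. Hspa1b had 43 reads in all, 27 of them in P2+ MEPs and 0 in P2+ CMPs, where the upper limit of the interval was 0.101 CPM. These genes are near copies of each other, with 62.6% of the Hspa1a and 57.0% of the Hspa1b 70-base stretches found in another transcript, and a read that aligns to more than 1 place is not counted by HTSeq. Hspa1l had 18 reads and Hspa12a none. Hspa2, best known from the testis, stood between 5.62 and 11.7 CPM and was read in 16.1% of P2- MEPs after thinning each cell to 100000 reads.

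Of the 3 HSP110 genes, whose proteins exchange the nucleotide of HSP70, Hsph1 and Hspa4l were called in a comparison of CMPs with MEPs. Hsph1 stood at 275.9, 256.9, 156 and 128 CPM. Its medians over cells were 278.9, 249.5, 137 and 114 CPM, and 22 of 47 P2+ MEPs but 4 of 27 P2- CMPs and 4 of 42 P2+ CMPs were above the P2- MEP median. The larger difference was between MEPs and CMPs, with a log2 ratio of CMPs to MEPs of -0.82 (-0.88 to -0.76) in P2- cells and -1.002 (-1.05 to -0.95) in P2+ cells. The latter was just past 2-fold, and with mitochondrial genes and Rn18s-rs5 taken out of the total it was -0.96. Hspa4 stood at 453, 370.85, 393 and 231.1 CPM, with P2+ CMPs set apart from the other populations by a log2 ratio of -0.77 (-0.81 to -0.72) to P2- CMPs. Of the P2+ CMPs 3 of 42 were above the P2- MEP median of Hspa4, against 9 of 27 P2- CMPs. Hspa4l, a lower relative, stood at 56.2, 46.5, 14.6 and 24.5 CPM. It was lower in P2- CMPs than in P2- MEPs by a log2 ratio of -1.94 (-2.13 to -1.76), and after thinning was read in 76.8% (63.6% to 87.0%), 48.9% (34.1% to 63.9%), 33.3% (16.5% to 54.0%) and 38.1% (23.6% to 54.4%) of the cells.

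Hspd1 and Hspe1, the HSP60 ring and its HSP10 lid, were both highest in P2- MEPs and lowest in P2+ CMPs. Hspe1 stood at 1185 (1173 to 1197), 832 (822 to 842), 687 (675 to 699) and 534 (527 to 542) CPM. Its cells ranged from 695 to 1766 (median 1171), 185 to 1569 (median 859), 158 to 1544 (median 709) and 123 to 1297 (median 480) CPM. Only 7 of 47, 2 of 27 and 1 of 42 cells of the other populations lay above the P2- MEP median. Hspd1 stood at 1127, 889, 736 and 579 CPM, with medians of 1102, 931, 708 and 544 CPM, and 13 of 47, 4 of 27 and 1 of 42 cells of the other populations were above the P2- MEP median. The log2 ratio of P2+ to P2- cells was -0.51 for Hspe1 and -0.34 for Hspd1 in MEPs, and -0.36 and -0.35 in CMPs. The 2 genes meet head to head on chromosome 1 (Hspd1 at 55077835 to 55088243, minus strand, and Hspe1 at 55088132 to 55091307, plus strand) and share the promoter element shown above. Over cells of a population, each thinned to 100000 reads, the Spearman correlation of their reads was 0.29 (n = 56), 0.24 (47), 0.61 (27) and 0.50 (42). This is a description over cells whose values share a fixed read total. Pairs on different chromosomes correlated too, at 0.38, 0.37, 0.43 and 0.12 for Hspd1 with Hspa9. For Hsp90aa1 with Hsp90ab1 the values were 0.27, 0.24, 0.55 and 0.28, and for Cct3 with Cct8 they were 0.28, -0.10, 0.28 and 0.16. Counting was without strand, and 4.24% of Hspd1 and 7.60% of Hspe1 exon bases overlap the other gene, while 32.9% of Hspd1 and 15.7% of Hspe1 70-base stretches recur in copies elsewhere.

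**Figure D3:**
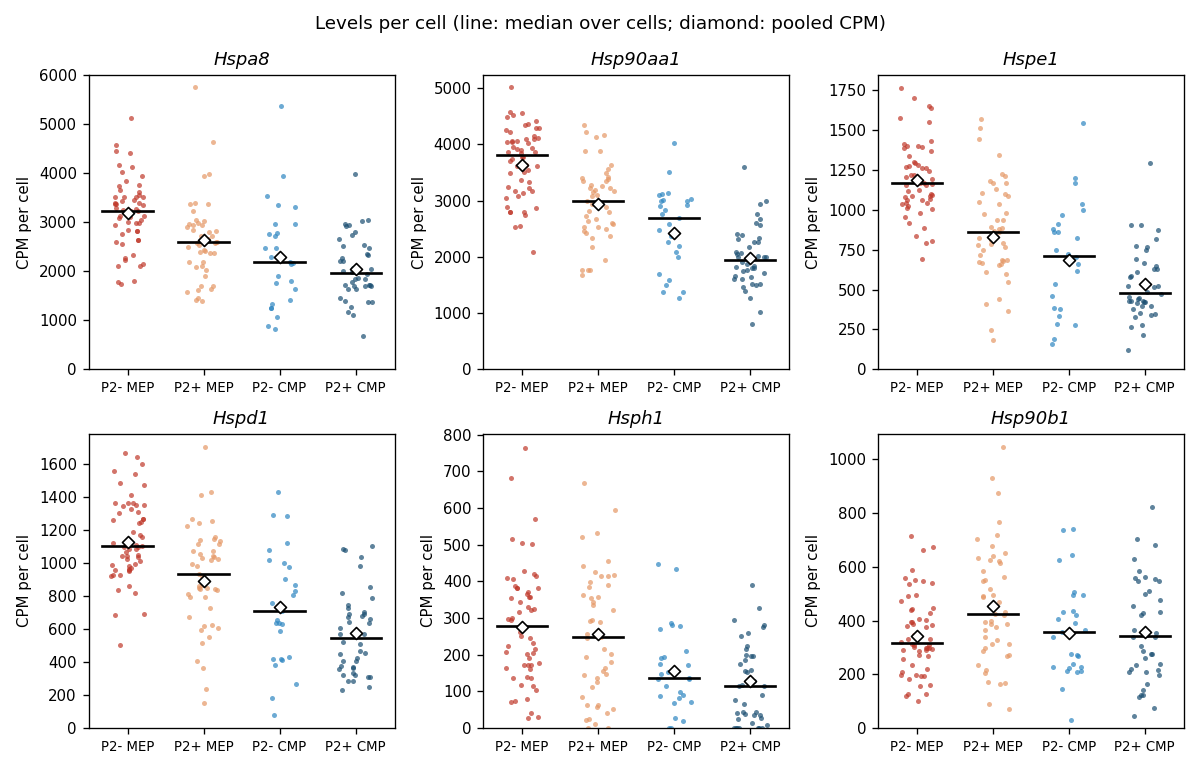
CPM per cell of Hspa8, Hsp90aa1, Hspe1, Hspd1, Hsph1 and Hsp90b1, 1 point per cell, with the median over cells (line) and the pooled CPM (diamond). The medians of Hspe1 step down from 1171 to 480 CPM and those of Hspd1 from 1102 to 544 CPM, the Hsph1 medians are lower in both CMP populations, and the Hsp90b1 median is highest in P2+ MEPs.

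Hspa9, the mitochondrial HSP70 known as mortalin, stood at 643, 486, 463 and 408 CPM, and 9 of 47 P2+ MEPs and 3 of 42 P2+ CMPs were above the P2- MEP median. Of the 8 mitochondrial members, Hspd1 and Hspe1 included, 6 had a ratio below 0 in P2+ against P2- MEPs (median -0.21), 7 in P2+ against P2- CMPs (-0.35), 7 in P2- CMPs against P2- MEPs (-0.41) and 7 in P2+ CMPs against P2+ MEPs (-0.49). The medians of all genes compared lay between -0.02 and 0.03. Hspd1 and Hspe1 set the median between the CMPs, and Dnajc11 (0.01) and Dnajc15 (0.16) were the members above 0 between the MEPs. In P2+ against P2- CMPs the lowest of them were Dnajc30 at -0.81 (-1.02 to -0.60), Dnajc11 of the inner-membrane contact sites at -0.50 and Dnajc19 of the import motor at -0.44. Dnajc30 was a low gene (19.7 CPM in P2- CMPs and 11.3 in P2+ CMPs), and 26.2% of its exon bases overlap Bud23 on the other strand. Dnajc15, another import J-protein, had ratios of 0.16 between the MEPs, -0.08 between the CMPs, 0.25 between P2- CMPs and MEPs and 0.01 between P2+ CMPs and MEPs.

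Subunits of TRiC were lower in P2+ than in P2- MEPs, by less than 2-fold, and divided between the CMPs. The 8 members of the list summed to 5269 (5243 to 5294), 4496 (4473 to 4520), 4315 (4285 to 4345) and 4366 (4344 to 4387) CPM, with medians over cells of 5272, 4481, 4191 and 4247 CPM. All 6 subunits that could be compared had a ratio below 0 in P2+ against P2- MEPs, from -0.38 for Cct4 and Cct8 to -0.05 for Cct5, with a median of -0.22. With DESeq2 size factors 5 of the 6 were below 0 there. In CMPs 2 of 6 were below 0, with a median of 0.03 (3 of 6 with equal weight for every cell, with DESeq2 size factors and without the cell of conflicting label), from -0.21 for Cct5 to 0.23 for Cct4. P2- CMPs were below P2- MEPs for all 6 (median -0.30), and for 5 of 6 with mitochondrial genes and Rn18s-rs5 out of the total. P2+ CMPs were below P2+ MEPs for 3 of 6 (median -0.04), and for 5 of 6 with DESeq2 size factors (median -0.14) and with equal weight for every cell (-0.09). Tcp1, outside the naming rule, and Cct6a, left out for its annotated gene type, had ratios of -0.28 and -0.19 between the MEPs and 0.17 and -0.02 between the CMPs. The remaining members of the list were Cct6b, a testis form with 125 reads in all, and Cct8l1 with none.

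**Figure D4:**
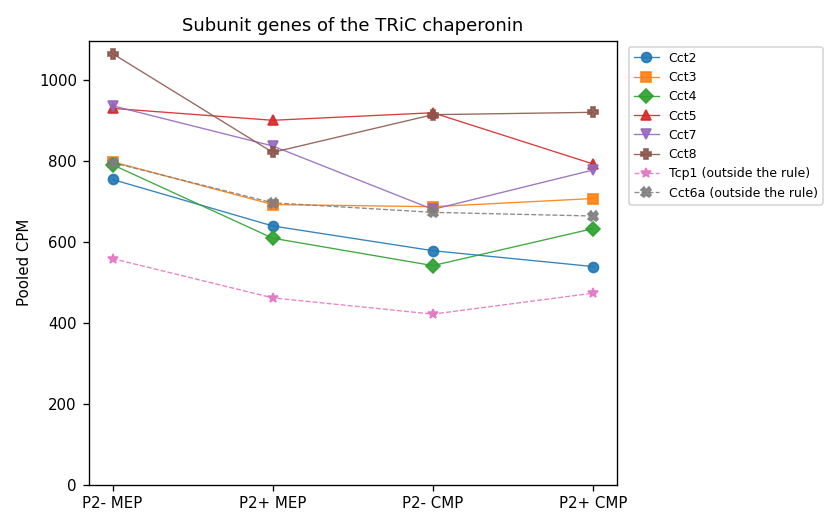
Pooled CPM of the 6 TRiC subunit genes that could be compared and of Tcp1 and Cct6a (dashed) in the 4 populations, with lines joining the values of a gene. Every subunit is highest in P2- MEPs, Cct2 and Cct6a step down through the 4 populations, and Cct4, Cct7 and Tcp1 are higher in P2+ than in P2- CMPs.

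Most of the members listed for the endoplasmic reticulum were higher in P2+ than in P2- MEPs, by less than 2-fold. Of the 9 on that list, 7 had a ratio above 0 in P2+ against P2- MEPs, with a median of 0.42 against 0.00 for all genes and under each alternative processing between 0.36 and 0.46. The list summed to 1407 (1394 to 1421), 1593 (1579 to 1607), 1418 (1401 to 1435) and 1358 (1346 to 1370) CPM. Hsp90b1, the reticulum HSP90, stood at 341.4, 456.1, 353.9 and 356.1 CPM, and 33 of 47 P2+ MEPs were above the P2- MEP median of 316.7 CPM. Its log2 ratio between the MEPs was 0.42 (0.38 to 0.45), and 15.7% of its exon bases overlap other genes. Hspa5, the reticulum HSP70 BiP, differed less, at 742, 782, 719 and 622 CPM, a ratio of 0.07 (0.05 to 0.10) between the MEPs. Dnajc10, a J-protein that reduces disulfides, stood at 39.4, 61.5, 66.4 and 65.1 CPM (ratio 0.64, 0.54 to 0.75). Hspa13 stood at 12.4, 23.4, 18.0 and 30.8 CPM (ratio 0.92, 0.74 to 1.10), the highest ratio among the members compared between the MEPs and the third highest among those compared between the CMPs (0.78). After thinning it was read in 21.4%, 31.9%, 25.9% and 52.4% of the cells, and without the cell of highest CPM in each population its ratio between the MEPs was 1.20. The J-proteins Dnajc1 (0.51), Dnajb9 (0.52) and Dnajc3 (0.37) also had ratios above 0 between the MEPs, and Dnajb11 (-0.34) and Dnajc25 (-0.44) below. Dnajb9 rested on few cells, since 34.6% of its reads in P2+ MEPs came from 1 cell and its ratio without the highest cells was 0.19. The list leaves out 4 J-proteins of the reticulum membrane. Of these, Dnajb12 (0.45) and Dnajb14 (0.61) had ratios above 0 between the MEPs, and Dnajc14 (-0.34, -0.52 to -0.16) and Dnajc18 (-1.36), the only member called there, below 0. Between the CMPs 4 of the 9 were below 0, with a median of 0.01. Without the 1 P2- CMP of conflicting label 2 of 9 were below 0 there (median 0.11), the same count as between the MEPs, and without the highest cells also 2 (0.08), so the counts do not set the CMPs apart from the MEPs.

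**Figure D5:**
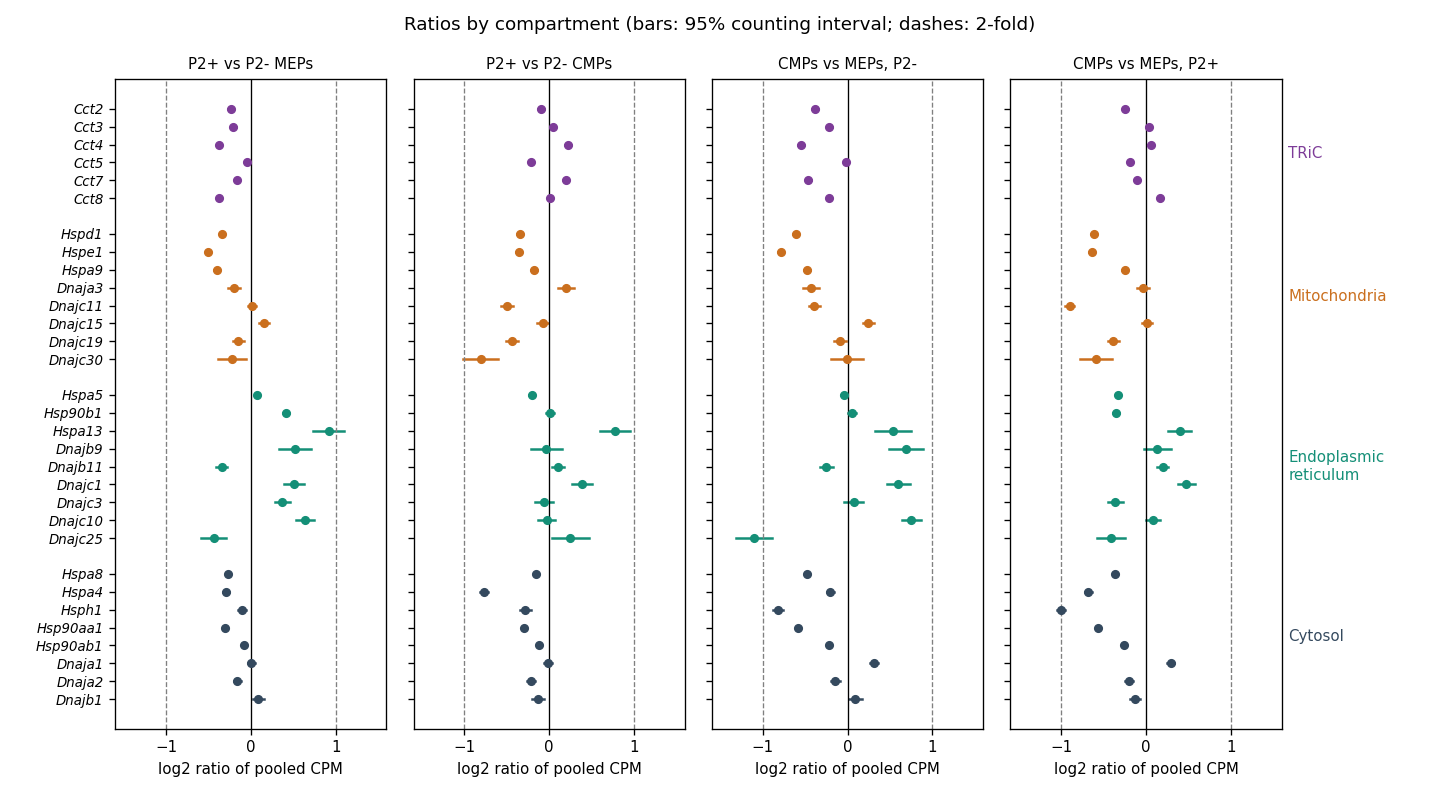
Log2 ratio of pooled CPM for members of TRiC, mitochondria, the endoplasmic reticulum and the cytosol in the 4 comparisons, with 95% counting intervals as bars and 2-fold as dashed lines. In the first panel the TRiC members lie between -0.38 and -0.05 and the endoplasmic reticulum members between -0.44 and 0.92.

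The elements shown above can be set beside these values. The 3 genes with a heat shock element other than Dnajb6 had ratios of -0.51 (Hspe1), -0.34 (Hspd1) and -0.10 (Hsph1) between the MEPs and -0.36, -0.35 and -0.28 between the CMPs. Dnajb6 had -0.03 and 0.23. Of the genes with only a core of GAANNTTC or TTCNNGAA, Cct2, Dnaja1, Dnajc27, Cct5, Dnajb4 and Dnajc10 could be compared. They had -0.24, 0.01, -0.78, -0.05, 0.06 and 0.64 between the MEPs. Between the CMPs they had -0.10, -0.01, -0.49, -0.21, 0.50 and -0.03. Hsp90aa1 and Hspa8 had no window. The 3 genes with a stress element had 0.42 (Hsp90b1), 0.37 (Dnajc3) and 0.07 (Hspa5) between the MEPs and 0.01, -0.06 and -0.21 between the CMPs.

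J-proteins differed widely among themselves. In P2+ against P2- MEPs the median was -0.16 for 3 members of class A, 0.09 for 7 of class B and -0.09 for 22 of class C, which ran from -1.36 (Dnajc18) to 0.64 (Dnajc10). Outside the organelle lists, the lowest after Dnajc18 were Dnajc27 (-0.78), Dnajc17 (-0.58) and Dnajc7 (-0.43). Dnaja1 and Dnaja2, the general partners of HSP70 in the cytosol, stood at 240.6, 241.9, 298.2 and 296.03 CPM and at 320.9, 287.1, 290.6 and 250.01 CPM. Dnaja1 was thus higher in CMPs, by 0.31 (0.26 to 0.36) in P2- and 0.29 (0.25 to 0.33) in P2+ cells, though 18.8% of its 70-base stretches recur elsewhere. Dnajb1, the main inducible J-protein of the cytosol, lay between 117 and 128 CPM in all 4 populations. Dnajc2, which docks HSP70 at the ribosome together with Hspa14, stood at 303.3 CPM in P2- MEPs, 267.03 in P2+ MEPs and 218.4 in P2- CMPs. Its partner Hspa14 (ENSMUSG00000109865.1) stood at 176, 130, 123 and 138 CPM, and the second identifier of that symbol at 7.30 CPM over all cells. Dnajc9, a histone chaperone that recruits HSP70, was highest in P2+ CMPs, at 235.96, 285.8, 279.03 and 403.0 CPM. Of the P2+ CMPs 37 of 42 were above its P2- MEP median of 217.7 CPM, against 17 of 27 P2- CMPs and 27 of 47 P2+ MEPs. Its ratio was 0.28 (0.23 to 0.32) between the MEPs and 0.53 (0.48 to 0.58) between the CMPs.

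The members called past 2-fold were all low genes other than Hsph1. Dnajc18, a J-protein of the reticulum membrane, stood at 20.1, 7.79, 26.1 and 30.9 CPM and was called in the MEPs (-1.36, -1.58 to -1.15) and between P2+ CMPs and MEPs (1.99). After thinning it was read in 33.9% (21.8% to 47.8%), 17.0% (7.65% to 30.8%), 33.3% and 47.6% of the cells. Its P2+ MEP level rested on few cells, with 30.9% of the reads in 1 cell. The gene just short of 2-fold in the MEPs was Hspbap1 at -0.95, which binds the small heat shock protein HSPB1 and stood at 21.7, 11.2, 6.11 and 2.26 CPM. Hspbap1 was called between P2- CMPs and MEPs (-1.83), and was read in 42.9%, 12.8%, 11.1% and 4.76% of the cells. Dnajc25 was called there as well, at -1.10 (28.1 CPM in P2- MEPs and 13.1 in P2- CMPs), and the next gene short of 2-fold was Hspa12b at 0.93.

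In the CMPs the 2 genes called were carried by a small number of cells. Hspb11, which in spite of its name is a subunit of the intraflagellar transport machinery, stood at 6.89, 10.9, 4.25 and 18.5 CPM, a ratio of 2.12 (1.78 to 2.48) between the CMPs. Only 3 of 27 P2- CMPs and 15 of 42 P2+ CMPs had a read after thinning, and with equal weight for every cell the ratio was 1.44. Dnajc16 stood at 10.8, 10.9, 7.14 and 17.0 CPM, a ratio of 1.25, with a read in 3 of 27 and 12 of 42 CMPs after thinning. Between P2+ CMPs and MEPs, Dnajb14, of the reticulum membrane, was called at -1.24 (27.8 CPM in P2+ MEPs and 11.7 in P2+ CMPs). Dnajc21, which takes part in ribosome assembly, was called at -1.07 (59.8 and 28.5 CPM), and without the cell of highest CPM it was at -0.92. For Dnajc18, Dnajc16, Dnajb14, Hspb11 and Dnajc21, a single cell gave between 8.14% and 45.8% of the reads of a population.

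The small heat shock proteins were close to absent, Hspb11 aside. Of the 8 genes named Hspb, 5 had no read in any kept cell (Hspb2, Hspb3, Hspb7, Hspb8 and Hspb9), and Hspb1, the best known inducible one, had 1 read in all, though 46.9% of its 70-base stretches recur in another transcript, mainly the Hsp25-ps1 copy. Hspb6 stood between 1.53 and 7.62 CPM, and 76.2% of its reads in P2+ CMPs came from 1 cell. The other members without a read were Cct8l1, Dnajc5b, Dnajc5g, Dnajc22 and Hspa12a. The list of heat-inducible genes, of which 8 of 11 could be compared, summed to 9789, 7950, 6739 and 5704 CPM. Nearly all of this came from Hspa8, Hsp90aa1, Hspd1 and Hspe1, which unstressed cells also express, Hspa8 being the constitutive HSP70, so the sum is not a level of the inducible HSP70 genes.

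A descending level through the 4 populations in the order used here was chosen after the levels had been seen. It was met by 11 of the 55 members that passed the filter (20%), namely Cct2, Dnajc2, Dnajc8, Hsp90aa1, Hsp90ab1, Hspa8, Hspa9, Hspbap1, Hspd1, Hspe1 and Hsph1, and by 10.1% of all 10073 genes that passed. The reverse order was met by 3 members (5.45%), Dnajb12, Dnajc1 and Dnajc5, and by 10.5% of all genes. Between the CMPs the ratio of Dnajc2 was -0.01 with a counting interval of -0.06 to 0.05, so this last step was not resolved by the reads. The last step of Dnajc8 was small as well, at -0.06 (-0.10 to -0.01).

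Partners of the chaperones outside the naming rule were read from fixed lists. Of 9 chaperonin partners, which include Tcp1 and the prefoldins that hand substrates to TRiC, 8 had a ratio below 0 in P2+ against P2- MEPs (median -0.27). Between the CMPs 3 of the 9 were above 0 (median -0.13), as were 4 for CMPs against MEPs among P2- cells (-0.08) and 6 among P2+ cells (0.32). Of 7 mitochondrial partners 6 were below 0 there (median -0.22), among them Grpel1, the nucleotide exchange factor of Hspa9, at 322.7 and 261.1 CPM. In the other 3 comparisons, in the same order, 4, 2 and 3 of the 7 were above 0, with medians of 0.08, -0.49 and -0.02. Grpel2, a relative of Grpel1, was called higher in P2+ than in P2- CMPs (1.15), where 4.98% of all genes were. It was called lower in P2- CMPs than in P2- MEPs (-1.28), where 7.33% of all genes were. Of 14 partners in the endoplasmic reticulum 10 were above 0 (median 0.11), among them Pdia3 (391.6 and 486 CPM), Calr (602 and 740 CPM) and Atf6, a sensor of reticulum stress, at 1.09 (18.1 and 38.6 CPM). Atf6 was the 1 of the 14 called between the MEPs, where 7.1% of all genes were called higher. In the other 3 comparisons 6, 9 and 5 of the 14 were above 0, with medians of -0.05, 0.12 and -0.22. Sil1, an exchange factor of BiP, was called higher in P2+ than in P2- CMPs (1.63), where 4.98% of all genes were. It was called lower in P2- CMPs than in P2- MEPs (-1.38), where 7.33% of all genes were. Xbp1, another regulator of the reticulum stress response, stood at 52.5, 75.2, 108 and 138 CPM through the 4 populations. It was called higher in P2- CMPs than in P2- MEPs (1.04), where 15.1% of all genes were. Atf4 ran the other way at 398, 302.4, 277.2 and 177 CPM. Of 17 co-chaperones of HSP70 and HSP90, 12 were below 0 between the MEPs (median -0.16), and none was called. In the other 3 comparisons 8, 4 and 9 of the 17 were above 0, with medians of -0.00, -0.15 and 0.03. In CMPs against MEPs among P2- cells 2 of the 17 were called lower, Bag3 (-1.78), an inducible co-chaperone, and Bag2 (-1.22), and 1 higher, Unc45a (1.07), where 7.33% of all genes were called lower and 15.1% higher. Among P2+ cells 1 was called lower, Bag3 (-1.31), where 7.21% of all genes were. Hsf1, the main regulator of the heat shock response, stood at 99.3, 80.8, 42.6 and 82.7 CPM, so it did not follow the descending order. It was called lower in P2- CMPs than in P2- MEPs (-1.22), where 7.33% of all genes were. Hsf2 lay between 6.73 and 14.8 CPM and Hsf4 had no read. Eif2ak1, the erythroid kinase that senses haem, stood at 96.5, 74.1, 50.7 and 51.4 CPM.

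Other genes moved with the same populations. The 7 erythroid markers summed to 1653, 798, 307.2 and 96.9 CPM (0 to 438 CPM per cell in P2+ CMPs), all 7 having a ratio below 0 in P2+ against P2- MEPs. The 7 megakaryocyte markers summed to 49.2, 489, 490 and 600 CPM and the 7 granulocyte/monocyte markers to 16.3, 66.6, 404 and 653 CPM. The 11 immediate early and dissociation stress genes summed to 561, 1342, 1353 and 1327 CPM, with cells from 42.0 to 2162 CPM among P2- and from 52.9 to 3971 CPM among P2+ MEPs. Of these, 10 of 10 that could be compared were above 0 between the MEPs, 6 of them past 2-fold, where 7.1% of all genes were called higher. The 6 genes of dividing cells summed to 2360, 2134, 2240 and 2056 CPM. The part of these genes in the ratios of the chaperones was not tested. For Rn18s-rs5 only its part in the read total was looked at, by taking it out together with the mitochondrial genes. The 3 mast cell and basophil markers summed to 0.327, 2.69, 72.8 and 34.2 CPM, nearly all of it Cpa3, with Fcer1a at 0. Cpa3 was called higher in P2- CMPs than in P2- MEPs (7.80), where 15.1% of all genes were. The median over cells of the summed mast cell and basophil markers was 0 in every population, and single cells reached 486 CPM among P2- and 566 CPM among P2+ CMPs. The 4 endothelial markers summed to 1.63, 22.8, 44.9 and 34.9 CPM, also higher in CMPs and P2+ MEPs than in P2- MEPs. Nearly all of it was Tek (1.57, 21.4, 43.1 and 31.0 CPM), and Cdh5, Kdr and Stab2 were each at 1.79 CPM or less. The paper names Tek among its candidate surface markers for telling P2+ from P2- MEPs. Markers of hepatocytes summed to between 10.3 and 24.7 CPM (5 genes) and those of macrophages to between 1.18 and 10.1 CPM (4 genes, with Adgre1 and C1qa at 0). The part of these cells in the ratios of the chaperones was not tested either.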

How the data were processed

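Single cells were sorted into plates and sequenced by a modified Smart-Seq2 protocol without molecular identifiers. Per the labels and the study's methods, the authors trimmed the reads (Trimmomatic 0.36), aligned them to GRCm38 with the ERCC spike-ins (STAR 2.4.2a) and counted them over exons without strand (HTSeq 0.6.1p1). The deposited values are raw counts per gene and cell, beside the percent of unmapped reads of each cell as the authors gave it. Of the uniquely mapped reads 25.6% were ambiguous between genes and 7.40% fell in no gene, and neither entered a total. Cells with at least 250000 reads, at most 25% unmapped reads and at most 15% ERCC reads were kept (172 of 175). For each population, reads of a gene were added up and set against all its mouse reads, which came to 18334696 to 36351033. Intervals are 95% exact Poisson (levels), conditional binomial (ratios) and Clopper-Pearson (shares of cells) and cover counting error only. For shares of cells with a read, every cell was thinned to 100000 reads. The calculation was tested on simulated data (Python 3.11.15, pandas 2.3.3, scipy 1.17.1), and DESeq2 1.42.0 gave alternative size factors. The genes called past 2-fold, the nearest gene short of it and the genes of each role and compartment list were named. The members, lists and order were chosen with earlier results of these data known.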

Additional observations from a re-analysis of the deposited data

How the results depend on the processing

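Counts of members called past 2-fold are small and moved with the filter and the threshold. With no minimum of reads or cells, the counts higher and lower were 8 and 4 in P2+ against P2- MEPs, 7 and 4 in P2+ against P2- CMPs, 5 and 5 in CMPs against MEPs among P2- cells and 3 and 9 among P2+ cells. Of all genes then compared, 21.3% and 16.1%, 14.8% and 20%, 29.1% and 12.9%, and 23.7% and 19.2% were called in the same comparisons and directions. At 1.5-fold they were 3 and 3, 4 and 3, 5 and 9, and 4 and 9, and of all genes 15.9% and 10.2%, 12.3% and 13.8%, 25.4% and 16.7%, and 20.6% and 17.5%. With a read required in 50% of the cells, the count lower in P2+ MEPs was 0 (2.47% of all genes) and the count higher in P2+ CMPs was 0 (2.2%). Without the cell of highest CPM per gene and population, 1 member was higher (7.26% of all genes) and 3 were lower (5.1%) in P2+ MEPs. With equal weight for every cell and with DESeq2 size factors, 2 members were lower in P2+ MEPs (3.46% and 3.18% of all genes) and 1 was higher in P2- CMPs than in P2- MEPs (15.1% and 14% of all genes). No called ratio changed sign under any alternative that was run. The direction held under all of them for 45 of 53 members between the MEPs, 43 of 54 between the CMPs, 46 of 54 among P2- cells and 46 of 54 among P2+ cells. The descending order, whose alternatives were chosen after seeing the data, held for 14 members with equal weight (10.7% of all genes), 16 with DESeq2 size factors (10.8%), 10 with mitochondrial genes and Rn18s-rs5 out of the total (8.55%) and 11 without the highest cells (10.1%), where Dnajc2 left and Dnaja2 entered. Dnajb9 between the CMPs was at -0.03, and at 0.25 without the cell of conflicting label. No paired analysis was possible because the populations share no replicate numbers and each is 1 pool. Low members were read in few cells, and the difference between pools of animals is unknown.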
